A study of Mus musculus with 5 samples.

Results

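Aminoacyl-tRNA synthetases are the enzymes that join each amino acid to its transfer RNA, and their transcripts were measured in 2-cell mouse embryos. The members were chosen by gene symbol alone: the amino acid's letter followed by "ars" with an optional 1 or 2, plus Eprs, Farsa, Farsb and Tarsl2. This found 38 genes among the 32285 in the table. Of these, 19 encode cytosolic enzymes, 17 encode mitochondrial enzymes, and Gars and Kars each encode both forms. RNA-seq libraries came from oocytes of hormone-treated females aged 6 to 9 weeks, fertilised in vitro with sperm of males aged 12 to 16 weeks and then kept for 24 h in KSOM medium holding either PNMC at 25 nM (3 libraries) or DMSO, its solvent, at equal volume (2 control libraries). The labels do not spell out PNMC, give no mouse strain or embryo number, and do not say whether libraries came from separate cultures. Any p-value below thus reflects library-to-library spread that may be technical.

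Protein synthesis needs a charged tRNA for every amino acid, so a cell needs a synthetase activity for each of them. The cytosol and the mitochondrion hold largely separate sets, and the mitochondrial enzymes are encoded in the nucleus, made in the cytosol and imported. The symbols of mitochondrial enzymes end in 2. Tarsl2 is an exception, since it is a cytosolic threonyl-tRNA synthetase. Synthetases fall into class I and class II by the fold of the catalytic domain. Several cytosolic ones assemble with scaffold proteins into the multi-tRNA synthetase complex. When amino acids run short, uncharged tRNA activates the kinase GCN2, and the transcription factor ATF4 then induces many cytosolic synthetase genes. An early embryo relies on messenger RNA and translation machinery stored by the oocyte while it starts its own transcription.

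Sites of the kind that ATF4 binds are shown first, because among these enzymes they were found near the starts of cytosolic and dual-located genes. RefSeq promoters on GRCm38.p6, from 250 bases before to 50 after the gene start, were at hand for 28 of the 38 genes. Those of the other genes, among them Cars, Hars, Hars2, Lars, Nars, Pars2, Rars, Vars and Wars, were not used here. The amino acid response element was searched as TGATGNAA on both strands. It was present in the promoters of 4 of 12 cytosolic genes, in that of Gars among the 2 dual-located genes, and in 0 of 14 mitochondrial ones. By comparison, 3.97% of all 32851 promoters in the table held it. That share is per promoter, while a gene counted if any of its listed promoters held the motif, here and below. A site is printed for each gene that held the element. Each line gives 30 bases of the gene's own strand, read 5′ to 3′, with the match or its reverse complement in capitals.
Aars, chr8:111033840-111033869, plus strand: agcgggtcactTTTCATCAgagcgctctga
Gars, chr6:55037960-55037989, plus strand: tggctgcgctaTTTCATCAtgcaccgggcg
Iars, chr13:49682126-49682155, plus strand: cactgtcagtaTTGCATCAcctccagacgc
Tars, chr15:11399655-11399684, minus strand: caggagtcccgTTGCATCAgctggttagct
Yars, chr4:129189895-129189924, plus strand: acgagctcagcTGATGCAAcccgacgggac

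The E-box CACGTG, the core bound by MYC and USF factors, is its own reverse complement and was found in 5 of the 28 genes against 7.15% of all promoters. Aars, Iars and Tars held it as well as the element above, and the others were Farsb and Ears2. Those last promoters are shown because Farsb had the highest level of any member and Ears2 the smallest p.
Farsb, chr1:78488919-78488948, minus strand: ttagacaggcatCACGTGagacagcccaag
Ears2, chr7:122067048-122067077, minus strand: cgcgaaggagccCACGTGtgtgtttctagt
The ETS site CCGGAAGT, searched on both strands, was found in Farsa, Mars and Rars2, or 3 of 28 genes against 3.89% of all promoters. The cAMP response element TGACGTCA was found in 0 of 28 against 1.79%. A match describes the letters in the window and not that a factor was bound.

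Values were normalised expression levels of unstated unit that summed to between 446010 and 454548 in each library, with 17408 to 18595 genes above 0. The read depth is unknown, so no counting interval can be given. Oocyte and 2-cell markers such as Gdf9 and Dppa3 were all present, and the 8 together summed to between 4785 and 5144. The 10 cumulus and granulosa markers summed to 3.54 and 8.12 in controls and to between 2.21 and 3.23 after PNMC, with Ptx3, Amh and Inhba at 0 throughout. The 7 sperm markers summed to 4.22 and 4.58 in controls and to between 4.54 and 6.89 after PNMC, with Prm1, Tnp2 and Smcp at 0. Prm2 made up most of that sum, at 3.91 and 4.02 in controls and 5.19, 5.79 and 4.54 after PNMC. The 7 blood markers summed to 9.81 and 15.7 in controls and to between 7.13 and 10.2 after PNMC, with Hbb-bt at 0. Hba-a1 made up most of that sum, at 7.16 and 8.29 in controls and 4.57, 8.09 and 5.77 after PNMC. Whether any of these other cells were present, and whether any part of the synthetase values came with them, was not tested.

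Levels are compared between genes here as the authors scaled them. For genes seen in only 1 or 2 libraries, the median lowest value fell from 0.264 at transcript lengths of 400 to 800 bases to 0.0490 at 6400 bases or more. The values therefore fell with length, but whether they were fully divided by it is not known. Gene pairs are accordingly also given after a further division by transcript length.

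Cytosolic genes had means from 0.610 to 126, and the most abundant was Farsb. It encodes the beta subunit of cytosolic phenylalanyl-tRNA synthetase, an enzyme built from 2 alpha and 2 beta chains. Its value was 116 and 127 in the control libraries and 121, 119 and 148 in PNMC libraries 1, 2 and 3, a mean level above that of 95.6% of the genes tested. Farsa, the alpha subunit, stood at 11.5 and 8.24 in controls and at 16.4, 6.39 and 10.4 after PNMC. Within each library Farsb thus exceeded Farsa, by 10.0-fold and 15.4-fold in controls and by 7.36-fold, 18.7-fold and 14.2-fold after PNMC. Those ratios overlapped between groups.

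Qars, the glutaminyl enzyme, was next at 72.9 and 76.1 in controls and 91.2, 62.0 and 62.7 after PNMC. Iars, the isoleucyl enzyme, followed at 76.2 and 40.3 in controls and 58.6, 50.7 and 59.2 after PNMC. Its controls differed more from each other than the PNMC libraries did. The ranges of Qars and Iars overlapped each other, and neither reached the lowest Farsb value. Nars, the asparaginyl enzyme, ranged from 39.4 to 55.1 over the 5 libraries.

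Kars, the lysyl enzyme whose splice forms serve both compartments, varied little between libraries, at 63.8 and 62.5 in controls and 63.2, 66.6 and 58.5 after PNMC. Gars, the glycyl enzyme made in both forms from one gene, stood at 44.3 and 53.0 in controls and at 53.2, 47.4 and 66.3 after PNMC. Both lay among the highest members and overlapped between the groups.

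A middle group of cytosolic genes had mean values between 10.6 and 21.7. It held Wars (tryptophan), Dars (aspartate), Aars (alanine), the fused Eprs (glutamate and proline), Sars (serine), Rars (arginine) and Farsa. Tars (threonine) averaged 7.11, Yars (tyrosine) 4.75 and Hars (histidine) 4.73, and Cars (cysteine) averaged 2.60 with a range from 0.644 to 4.22. Lars (leucine), Vars (valine) and Mars (methionine) were near the floor at means of 1.77, 1.24 and 1.24. Tarsl2 was below the filter for testing, which was a value of 1 or more in 2 or more libraries. Its values were 0.721 and 0.478 in controls and 0.497, 0.0568 and 1.30 after PNMC, and its annotated exons share 120 bases with the abundant Tm2d3 on the same strand.

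Most mitochondrial transcripts were scarce, with a median of the gene means of 1.62 against 13.8 for the cytosolic set. Fars2, the single-chain mitochondrial phenylalanyl enzyme, was the exception at 63.9 and 56.2 in controls and 51.5, 52.4 and 44.9 after PNMC. Lars2, the leucyl enzyme, came next at 14.7 and 14.6 in controls and 14.5, 16.1 and 12.8 after PNMC. Vars2, the valyl enzyme, ranged more widely at 16.8 and 9.01 in controls and 20.3, 12.9 and 9.48 after PNMC. The ranges of Lars2 and Vars2 overlapped, while Fars2 lay above both in every library.

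The remaining mitochondrial genes were lower. Cars2 averaged 6.69, and Ears2 and Rars2 averaged 3.18 and 3.02. Mars2, Tars2 and Sars2 averaged 1.69, 1.62 and 1.52, and Pars2 averaged 0.910. Hars2 was listed at 0 in both controls. The 5 mitochondrial genes under the filter were Iars2, Wars2, Nars2, Yars2 and Aars2. Iars2 stood at 0.552 and 0.340 in controls and 0.567, 0.497 and 1.66 after PNMC, and Wars2 at 0 and 1.49 in controls and 0.460, 0.832 and 0.727 after PNMC. Nars2 stood at 0 and 0.219 in controls and 0.00888, 0.415 and 1.13 after PNMC. Yars2 stood at 0.753 and 0.0875 in controls and 0.692, 0 and 0.0880 after PNMC, and Aars2 at 0.266 and 0.239 in controls and 0.157, 0.460 and 0 after PNMC. All 5 overlapped between groups, and a value at 0 may be undetected or a failed estimate.

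**Figure D1:**
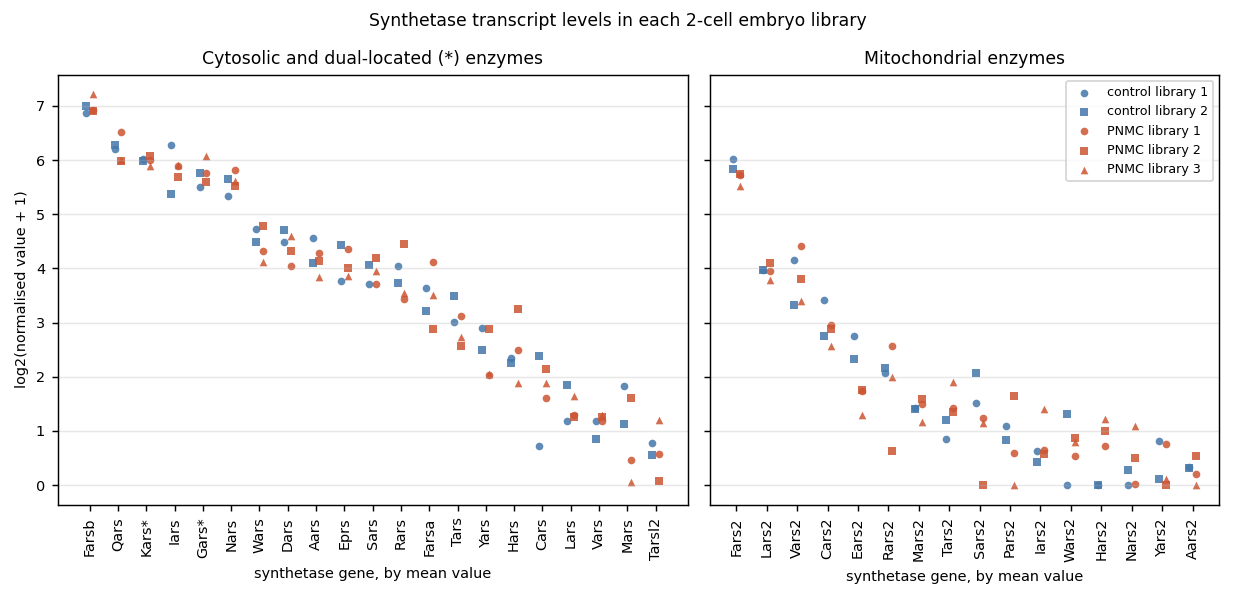
The vertical axis is log2(normalised value + 1) and the horizontal axis lists 37 of the synthetase genes by mean value, cytosolic and dual-located ones on the left and mitochondrial ones on the right. Each point is 1 library (2 controls in blue, 3 PNMC in red); Farsb is the highest member and Fars2 is the only mitochondrial gene with a mean above that of Lars2, at 53.8 against 14.5.

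Setting each mitochondrial gene against the cytosolic gene for the same amino acid gave 19 pairs over the 17 mitochondrial genes, since Fars2, Tars2 and Eprs stand in more than 1 pair. The ratio was taken within a library, as log2 of (cytosolic value + 1) over (mitochondrial value + 1). The cytosolic gene was higher in every library in 13 pairs and the mitochondrial gene in 5, while Mars over Mars2 was mixed. The widest gap was Nars over Nars2, with a log2 ratio of 5.35 ± 0.0263 (SD over 2 controls) against 5.11 ± 0.644 (SD over 3 PNMC libraries), and SDs are given so from here on. Iars over Iars2 was close behind at 5.29 ± 0.488 and 4.95 ± 0.397. Of the 17 mitochondrial genes, 7 had means under 1, Nars2 and Iars2 among them. The added 1 limits the size of the ratios to such genes.

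In leucine, valine and cysteine the order was the other way round. Vars over Vars2 had a log2 ratio of -2.72 ± 0.348 in controls and -2.62 ± 0.566 after PNMC. Lars over Lars2 had -2.46 ± 0.477 and -2.55 ± 0.368, and Cars over Cars2 had -1.53 ± 1.65 and -0.92 ± 0.381. Farsa over Fars2 was also negative at -2.50 ± 0.183 and -2.15 ± 0.643, whereas Farsb over Fars2 was positive at 1.01 ± 0.224 and 1.36 ± 0.292. The fifth pair with the mitochondrial gene higher throughout was Tarsl2 over Tars2, and both genes are near the floor.

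Dividing the values by transcript length left 13 pairs with the cytosolic gene higher in every library and 4 with the mitochondrial one higher, the pair that moved being Tarsl2 over Tars2. The median ratio over the pairs did not separate the exposures. It was 2.09 in both control libraries and 1.69, 2.25 and 1.70 in PNMC libraries 1, 2 and 3. With PNMC the ratio was higher on average in 9 pairs and lower in 10.

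**Figure D2:**
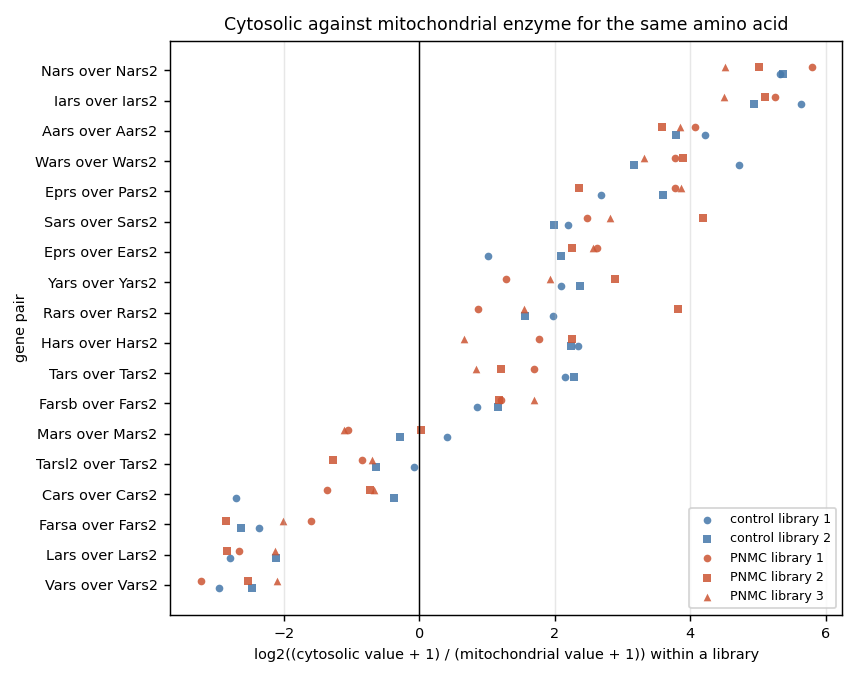
The horizontal axis is the log2 ratio of the cytosolic to the mitochondrial gene within a library, on values + 1, and each of the 18 rows is 1 gene pair. Points are libraries (controls blue, PNMC red); 12 of the pairs shown lie wholly to the right of 0 and 5 wholly to the left, the lowest being Vars over Vars2.

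The multi-tRNA synthetase complex contains 8 of these genes: Dars, Eprs, Iars, Kars, Lars, Mars, Qars and Rars. Their transcript levels were unequal, with the highest mean 58.9 times the lowest. Qars, Kars and Iars had means of 73.0, 62.9 and 57.0. Lars stood at 1.26 and 2.59 in controls and 1.44, 1.39 and 2.14 after PNMC. Mars stood at 2.55 and 1.19 in controls and 0.372, 2.04 and 0.0471 after PNMC. The 3 scaffold genes were unequal too. Aimp2 averaged 41.3 ± 3.52 in controls and 48.2 ± 8.75 after PNMC, and Eef1e1 averaged 17.03 ± 3.82 and 14.1 ± 4.13. Aimp1, the scaffold that also gives rise to a cytokine, stood at 1.21 and 3.53 in controls and at 0.832, 0.139 and 0.634 after PNMC. Every PNMC value of Aimp1 lay below both controls. It passed the filter only through the controls, so these values are a description with no test.

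**Figure D3:**
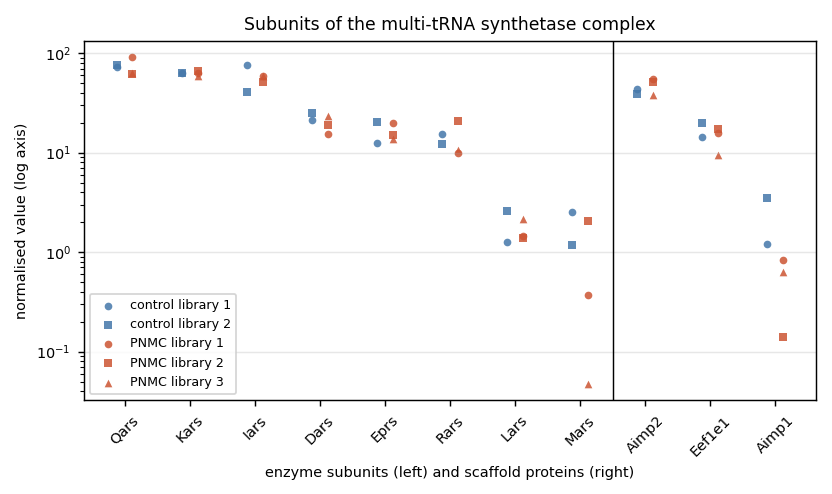
The vertical log axis is the normalised value, and the horizontal axis lists the 8 enzyme genes of the complex (left of the line) and the 3 scaffold genes (right). Points are libraries (controls blue, PNMC red); Lars and Mars lie far below Qars, Kars and Iars, and Aimp1 is lower in all 3 PNMC libraries.

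None of the synthetase genes passed the adjusted threshold of 0.05 for a PNMC effect in limma, run on log2(value + 1), and of all 12734 genes tested 0% did. Adjusted p-values of the 32 members that passed the filter ran from 0.967 to 0.999. Before adjustment, 3 members (Ears2, Sars2 and Hars2) had a limma p under 0.05, a mark that 4.99% of all tested genes met. Hars2 entered the test only through PNMC libraries, so it had to be higher there and is no support for a change. The other 31 tested members reached the minimum in at least 1 library of each group, and 2 of them met the mark. The median log2 change was -0.05 over the 32 tested members, with 13 higher and 19 lower. It was also -0.05 over all tested genes.

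Ears2, which charges mitochondrial tRNAs with glutamate, had the smallest p. It stood at 5.70 and 4.03 in controls and at 2.33, 2.39 and 1.46 after PNMC. All 3 PNMC values lay below both controls, and the log2 change was -0.94 (SE 0.347, 95% interval -1.69 to -0.19, limma adjusted p = 0.967). Exons of Ears2 share 89 bases with Ubfd1 on the opposite strand, which stood at 10.0 and 9.37 in controls and at 7.24, 10.8 and 6.58 after PNMC. Ears2 also loads glutamate onto the mitochondrial glutamine tRNA, which the amidotransferase subunits Gatb, Gatc and Qrsl1 then convert, so mitochondria need no glutaminyl enzyme.

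Gatc stood at 4.54 and 4.57 in controls and at 2.30, 1.47 and 2.22 after PNMC, with no overlap (log2 change -0.90, SE 0.339, limma adjusted p = 0.967). Qrsl1 stood at 0.529 and 3.17 in controls and overlapped with PNMC values of 0.234, 1.08 and 0.728. Gatb was under the filter. Mtfmt, which formylates the mitochondrial initiator tRNA, averaged 3.51 ± 1.85 and 5.72 ± 1.52.

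Sars2, the mitochondrial seryl enzyme, stood at 1.86 and 3.19 in controls and at 1.37, 0 and 1.20 after PNMC. The PNMC values were lower in all 3 libraries, 1 of them at 0, and the difference in log2(value + 1) was -0.996 (SE 0.461, 95% interval -1.99 to -0.0028, limma adjusted p = 0.986). Hars2, the mitochondrial histidyl enzyme, had 0 in each control and then 0.651, 1.01 and 1.33 after PNMC. It passed the filter only through PNMC libraries 2 and 3, so its values are a description with no test. Annotated exons of Hars2 and Hars share 195 bases on opposite strands. Smart-seq2 keeps no strand, so reads there cannot be assigned to one gene. Hars stood at 4.06 and 3.74 in controls and at 4.63, 8.55 and 2.69 after PNMC.

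Groups did not overlap in 6 of the 32 tested members, or in 5 of 31 without Hars2, where 19.9% of all tested genes did not overlap. All 6 were mitochondrial genes, out of 12 tested, against 0 of 18 cytosolic and 0 of 2 dual-located genes. Without Hars2, whose direction the filter fixed, 5 of 11 tested mitochondrial genes are left. Whether mitochondrial and cytosolic genes differ in this was not tested. Besides Ears2, Sars2 and Hars2 the 6 included Fars2 and Tars2. Fars2, with the values above, differed by -0.27 on the log2(value + 1) scale (SE 0.169, limma adjusted p = 0.993). Tars2, for threonine, stood at 0.813 and 1.31 in controls and at 1.69, 1.55 and 2.73 after PNMC. Of the 6, 4 were lower and 2, Hars2 among them, were higher after PNMC, where 11.9% and 7.97% of all tested genes lay so. Fars2 is the only one of them with a mean of at least 10.

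The summed value of the 17 mitochondrial genes was 124 and 107 in controls, and 110, 103 and 88.5 with PNMC. The groups overlapped. Fars2 alone made up much of each sum. The summed cytosolic value was 449 and 440 in controls and 458, 427 and 439 after PNMC. Over all members of each set, the median log2 change was -0.05 for cytosolic and -0.07 for mitochondrial genes. Over the tested ones alone it was -0.04 for 18 cytosolic and -0.24 for 12 mitochondrial genes, and the latter include Hars2. By catalytic fold, the tested members had a median of -0.07 in class I (15 genes) and 0.03 in class II (16 genes). Class II includes Hars2 here too. Over all members, tested or not, the median was -0.07 in class I and -0.01 in class II.

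Precision followed the level. The 95% intervals stayed within 1 log2 unit of 0 for 16 of 16 members with a mean of at least 10, and for 3 of the 16 tested members below that, against 61.4% of all tested genes. The tightest example was Farsb, with a log2 change of 0.08 and an interval from -0.24 to 0.40. For Kars the interval ran from -0.35 to 0.33 around -0.01, and for Qars from -0.47 to 0.33 around -0.07. For Mars it ran from -1.85 to 0.31.

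**Figure D4:**
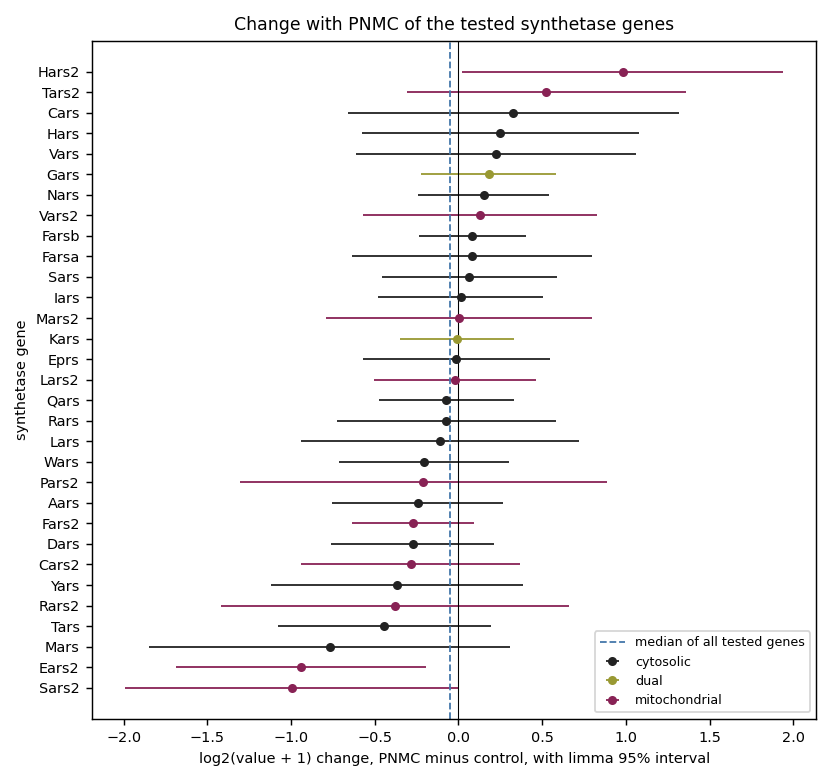
The horizontal axis is the log2(value + 1) change, PNMC minus control, with limma's 95% interval as the bar, for 31 tested synthetase genes; the dashed line is the median of all tested genes, -0.05. Intervals are narrow for abundant genes such as Farsb and wide for scarce ones, and those of Ears2, Sars2 and Hars2 exclude 0 before adjustment, Hars2 being a gene that entered only through PNMC libraries.

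Genes that work beside the synthetases were described from lists of partners. Of the 45 tested genes of tRNA processing and modification, 1 was higher and 2 were lower at an unadjusted limma p under 0.05, where 1.73% and 3.27% of all tested genes were. Of the latter pair, Tsen15 passed the filter only through the controls and is no support. Trmt1, a tRNA guanine methyltransferase, stood at 11.9 and 8.75 in controls and at 20.7, 16.4 and 17.2 after PNMC (limma adjusted p = 0.959). Trmt61a, the catalytic subunit of a tRNA adenine methyltransferase, stood at 3.75 and 2.94 in controls and at 0.484, 2.06 and 1.05 after PNMC (limma adjusted p = 0.967). Both were without overlap between groups, having been picked for small p. Among the 45, 3 were higher and 5 lower without overlap, Tsen15 among the latter. Of all tested genes, 7.97% and 11.9% lay so.

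Prorsd1, related to editing domains that clear mischarged tRNA, stood at 4.23 and 3.70 in controls and at 6.07, 10.7 and 5.45 after PNMC (limma adjusted p = 0.986). Aarsd1, an editing protein related to the alanyl enzyme, stood at 7.48 and 7.05 in controls and at 2.83, 4.38 and 6.07 after PNMC. Among the 6 genes of the selenocysteine route, the kinase gene Pstk averaged 7.34 ± 3.91 and 3.53 ± 1.19 (limma adjusted p = 0.974), and Sephs2 averaged 222.9 ± 15.8 and 248.7 ± 12.7. Pstk overlapped between groups, with controls at 10.1 and 4.58 and PNMC values of 2.43, 3.36 and 4.79. None of the 9 elongation factor genes had an unadjusted p under 0.05, against 4.99% of all tested genes, and 2 were higher without overlap, against 7.97%. Eef1d averaged 32.1 ± 7.98 and 42.7 ± 5.19 with overlap between groups, and Gfm1 averaged 10.1 ± 2.00 and 13.0 ± 1.63.

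Of 20 tested genes of the GCN2 and ATF4 axis, 1 had an unadjusted p under 0.05, against 4.99% of all tested genes. Groups did not overlap in 1 that was higher and 4 that were lower, against 7.97% and 11.9%. That gene, Ddit3, stood at 29.9 and 34.2 in controls and at 18.04, 22.6 and 22.8 after PNMC (limma adjusted p = 0.967). Ddit3 overlaps Mars on the opposite strand by 68 exon bases. Ddit4, a regulator of mTOR, averaged 65.5 ± 18.1 and 48.2 ± 3.49. The median over the list was -0.01, and 10 genes were higher and 10 lower. Of the genes with the response element shown above, Iars and Gars had log2 changes of 0.01 and 0.18, and Aars, Tars and Yars had -0.24, -0.44 and -0.36. None passed the adjusted threshold, and all 5 overlapped between groups.

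Shared sequence limits some of these values. In the GENCODE M21 annotation, 1326 bases of the longest Aars transcript are also those of Exosc6, which the table lists at or near 0. The longest Iars transcript shares 1161 bases with Gm4849, and 2034 bases of the longest Iars2 transcript lie opposite Rab3gap2. Exons of Vars2 share 465 bases with the antisense gene Gm20483, itself at 14.1 and 9.42 in controls. Fars2 exons share 115 bases with Lyrm4 and 501 with Nrn1 on the opposite strand. Cars2 shares 422 with Naxd and Farsb shares 248 with Sgpp2, also on opposite strands. Reads in these stretches could have been split or assigned either way.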

How the data were processed

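RNA-seq of 2-cell mouse embryos gave 5 libraries. The authors deposited 1 table of a normalised signal per gene and library, whose unit is not stated. Build GRCm39 and the tools DESeq2 1.16.1, HISAT2 2.0.5, HTSeq and Trimmomatic are listed in the submitters' processing notes. For the annotation and the tool behind the values, nothing is stated. Libraries were made with Smart-seq2, per the labels' protocols. Columns were matched to samples by title.

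The filter kept the 12734 genes that reached 1 in 2 or more libraries. On log2(value + 1), limma 3.58.1 in R 4.3.3 compared the 3 PNMC libraries against both controls, with a mean-variance trend, robust variances, no covariate and Benjamini-Hochberg adjustment over all kept genes, two-sided. Such changes understate those of low genes. The procedure was tested on simulated data in which only genes well above the floor were changed, by large amounts. That test does not cover low genes or small changes. Pair ratios, counts, motif searches and figures were made with Python 3.11.15. Transcript lengths and overlaps came from GENCODE M21, on another build, so coordinates are given only for RefSeq promoters. Values in every library are given for members with an unadjusted p under 0.05, the 3 highest cytosolic and mitochondrial genes, Gars, Kars and genes under the filter. A gene that counts among the members is not reported here by name. From each partner list the 2 genes with the smallest p are named. Farsa, Lars, Mars, Hars, Tars2, Eef1e1, Aimp2, Gatb, Qrsl1, Tsen15 and the genes with motifs or overlaps were added after their values were seen. The members, lists and motifs were chosen with earlier results of these data known. Other settings tried were quantile and median scaling, no filter, a stricter minimum of 10, a pseudocount of 0.1, the replicate block, limma without trend or robust variances, and leaving out each library.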

Additional observations from a re-analysis of the deposited data

How the results depend on the processing

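No synthetase gene passed the adjusted threshold in limma under any of the 12 alternatives. Over all genes the count was 0 except without PNMC library 1, so it ranged from 0 to 1 with a library left out. The 3 members at an unadjusted p under 0.05 became 1 with a pseudocount of 0.1 and 1 with the replicate block. They became 0 under the stricter filter, which keeps none of these 3. The count was 2 with no filter, quantile normalisation, median scaling, or limma without trend or robust variances. Sars2 lost the mark in each of those settings, with the pseudocount of 0.1 and without PNMC library 2. Sars2 kept it with the replicate block and without PNMC library 1 or 3, while Ears2 lost it with the replicate block and without PNMC library 3. With a PNMC library left out the count ranged from 1 to 3, with 1 left without PNMC library 3. Replicate numbers are shared by only 2 pairs, whose deviations correlated at -0.058 and -0.043. With 2 controls, the deviations of one mirror those of the other, so these values do not settle whether same-numbered libraries belong together. The labels name no batch, so the main comparison took no pairs. The count of members without overlap was 1 under the stricter filter and 9 to 17 with a library left out, where fewer libraries make separation easier. The cytosolic median change was 0.0243 under quantile normalisation, 0.0134 under median scaling and -0.14 to -0.0162 with a library left out. The mitochondrial one was -0.275 with a pseudocount of 0.1 and -0.286 to 0.0537 with a library left out. In controls the median cytosolic over mitochondrial log2 ratio was 2.45 with a pseudocount of 0.1, 2.13 under quantile normalisation and 2.09 under median scaling. After division by length it was 1.33. The same 1 was added to those smaller values, which draws ratios towards 0 whatever the lengths. Nars over Nars2, for example, fell from a mean of 5.21 to 4.06, though Nars has the shorter transcript. The median ratio in controls was -0.748 over the pairs with means of at least 5 in both genes, which are the 2 of Fars2. With a library left out it was 2.09 to 2.10. The median over pairs of the change in each pair's log2 ratio with PNMC was -0.0903 as first computed. It was 0.257 with a pseudocount of 0.1, 0.352 over the 2 pairs of Fars2, and -0.153 to 0.0998 with a library left out. Where no cause is named, the cause was not tested.

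Log2 changes turned in sign in 48 of 364 recomputed gene values, over 18 genes. Dropping the filter, raising its minimum, and limma without trend or robust variances leave each log2 change as it was. Values from those settings are among the 364 but could not turn. The replicate block leaves PNMC library 3 alone in a block, so log2 changes under that setting repeat those found without that library. Their reversals are counted in both settings. Under the replicate block the changes that turned in sign were Eprs (0.0943), Farsb (-0.0162), Iars (-0.0262), Kars (0.0394), Lars2 (0.0596), Pars2 (0.163), Qars (0.0139) and Rars (0.0611). Under median scaling these were Eprs (0.0685), Kars (0.076), Lars2 (0.0606), Qars (0.0134) and Rars (0.00782). Under quantile normalisation these were Eprs (0.0406), Kars (0.010) and Lars2 (0.0266). With a pseudocount of 0.1 it was Mars2 (-0.00384). With a library left out, the ranges that crossed 0 were -0.505 to 1.161 for Cars, -0.62 to 0.0489 for Cars2, -0.343 to 0.316 for Eprs, -0.228 to 0.391 for Farsa, -0.0162 to 0.152 for Farsb, -0.105 to 0.581 for Hars, -0.438 to 0.464 for Iars, -0.0523 to 0.0394 for Kars and -0.444 to 0.223 for Lars. They were also -0.097 to 0.0596 for Lars2, -0.0779 to 0.126 for Mars2, -0.00943 to 0.313 for Nars, -0.34 to 0.163 for Pars2, -0.253 to 0.0223 for Qars, -0.393 to 0.115 for Rars, -0.799 to 0.169 for Rars2, -0.107 to 0.236 for Sars and -0.286 to 0.543 for Vars2.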
